A study of Arabidopsis thaliana with 27 samples.

Results

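The PHYTOCHROME INTERACTING FACTOR (PIF) genes of Arabidopsis thaliana encode basic helix-loop-helix (bHLH) transcription factors, and the 8 genes described here are PIF1 (AT2G20180), PIF3 (AT1G09530), PIF4 (AT2G43010), PIF5 (AT3G59060), PIF6 (AT3G62090), PIF7 (AT5G61270), PIF8 (AT4G00050, also called UNE10) and their close relative SPATULA (SPT, AT4G36930). They were taken by gene identifier and are 8 of the 34262 genes in the count table. All 8 passed the filter on low counts that left 20887 genes for testing. PIF1 and PIF7 transcripts fell after 1 h of simulated shade in the wild type and PIF8 transcript rose after 25 h. In the pif457 triple mutant no member passed the thresholds for a light response, and the responses of PIF1 and PIF8 differed from the wild type by a direct test. No member was called different in the hfr1-101 mutant.

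RNA was sequenced from whole seedlings harvested at 7 days of age, 3 hours after dawn (ZT3), in 9 groups of 3 libraries. The genotypes were the wild type Col-0, the triple mutant pif457 (pif4-101 pif5-3 pif7-1) and hfr1-101, a mutant of the negative regulator HFR1. Each was kept in a high red to far-red ratio (HRFR, the unshaded control), or moved to a low ratio (LRFR, which mimics the light reflected by neighbouring plants) for 1 h or 25 h before harvest. All seedlings were grown on agar medium without sucrose in long days, and the study's methods describe the 3 libraries of a group as separate pools of seedlings. A mutant line of 1 allele combination cannot separate the effect of a gene from that of the line, and whole seedlings average over cotyledons, hypocotyl and root, so that fewer cells of a type and less RNA per cell cannot be told apart.

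Active phytochrome B, which forms in red light, binds PIF proteins and restrains them, in several cases by triggering their breakdown. A low red to far-red ratio lowers the active pool, PIF proteins accumulate or become active, and they bind G-box and PBE-box elements in the promoters of growth genes. PIF4, PIF5 and above all PIF7 drive elongation in shade, PIF1 is best known for repressing seed germination in the dark, PIF3 for growth of dark-grown seedlings, PIF6 for a role in seed dormancy, and SPATULA for carpel development and seed germination. Most of this control acts on the proteins, whereas the values here are transcript levels.

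A gene with an insertion can still give reads from the rest of its length, so the region tested for each mutation is given beside the counts. The genotyping primers that the study lists for the wild type alleles were placed on the TAIR10.1 assembly, and each primer pair spans the region tested in its allele. For pif4-101 the pair lies at chr2:17888438-17889288, from within a PIF4 exon to a point past the annotated end of the gene (chr2:17886101-17889087, plus strand). For pif5-3 the window was chr3:21829632-21830507 in PIF5 (chr3:21827905-21830837, minus strand), and for pif7-1 it was chr5:24639595-24640246 in PIF7 (chr5:24638491-24640765, minus strand), both with primers in exons. The sequences below are those primers, 5′ to 3′, with no part capitalised.
SL42 (pif4-101): ctcgatttccggttatgg
SL43 (pif4-101): cagacggttgatcatctg
SL47 (pif5-3): tctctacgagcttggctttg
SL46 (pif5-3): tcgctcactcgcttacttac
EMO88 (pif7-1): catcctctggtttatcctatcacgccg
EMO89 (pif7-1): ccgttcatggtctaggcg

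Of the exonic bases of PIF4, 75.0% lie before the pif4-101 window and none after it. In PIF5 12.9% lie before and 57.6% after the pif5-3 window, and in PIF7 26.6% lie before and 47.4% after the pif7-1 window. The exact insertion points within these windows were not used here, and whether position bears on the reads kept was not tested.

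The members moved together in part, so the 250 bases before each annotated gene start were searched for elements that PIF and clock proteins bind. The G-box was searched as CACGTG, the PBE-box as CATGTG and the evening element of the circadian clock as AAATATCT, each on both strands. The G-box was found in PIF5, 165 bases before the start, and in SPT, 187 bases before it. No other member held any of these 3 motifs in this window, which says only that the letters are not there. Among 27443 promoters of the same length, 6.49% held the G-box, 11.09% the PBE-box and 4.79% the evening element. The windows of PIF5, PIF1 and PIF8 are shown because PIF5 holds the motif and PIF1 and PIF8 are the unmutated members whose light response differed in pif457. They run 5′ to 3′ on the strand of the gene, are read from TAIR10.1 and carry the G-box in capitals.
PIF5 (chr3:21830838-21831087): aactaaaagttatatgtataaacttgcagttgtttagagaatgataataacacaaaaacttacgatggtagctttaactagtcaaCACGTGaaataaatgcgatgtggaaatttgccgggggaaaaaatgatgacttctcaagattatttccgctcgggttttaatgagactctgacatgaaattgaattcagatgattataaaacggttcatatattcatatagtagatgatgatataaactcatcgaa
PIF1 (chr2:8707010-8707259): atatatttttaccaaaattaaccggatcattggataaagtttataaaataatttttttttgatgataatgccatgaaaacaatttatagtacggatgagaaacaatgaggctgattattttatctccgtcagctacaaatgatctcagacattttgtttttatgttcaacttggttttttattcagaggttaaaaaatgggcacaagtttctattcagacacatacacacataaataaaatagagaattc
PIF8 (chr4:17389-17638): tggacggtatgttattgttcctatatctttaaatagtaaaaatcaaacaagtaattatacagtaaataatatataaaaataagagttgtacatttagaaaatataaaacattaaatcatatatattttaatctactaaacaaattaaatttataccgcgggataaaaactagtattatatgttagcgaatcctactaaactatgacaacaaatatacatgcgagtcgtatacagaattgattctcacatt

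The libraries held 24857067 to 34863803 reads assigned to genes. Member counts ranged from 46 reads for SPT to 5418 for PIF5 in 1 library, so that PIF3 (86 to 215 reads), PIF6 (49 to 121) and SPT (46 to 100) were measured with less precision than the rest. In Col-0, HRFR replicate 1 and LRFR 25 h replicate 1 stood apart on the first axis of the deviations from group means, at -33.7 and -40.6 against -17 to 24.9 for the other 25. PIF1, PIF6 and PIF7 overlap genes on the opposite strand, and the strand setting of the counting is not given in the sources used here. Levels are given as CPM (the share of a library's reads, scaled to a common library size) after TMM scaling, and levels of different genes are compared only as CPM per kb of exon. All comparisons used the edgeR quasi-likelihood test, with a Benjamini-Hochberg adjusted p over all genes tested. A gene is called in a light comparison when the adjusted p was below 0.05 and the log2 fold change (log2FC) above 0.6 in size. These are the thresholds of the study, which applied them with DESeq2. Comparisons between genotypes and interactions are called on the adjusted p alone.

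In unshaded Col-0 the 8 genes fell into an abundant and a scarce class. PIF5 stood highest at 61.1 ± 3.75 CPM per kb (SD, n = 3), then PIF4 at 39.9 ± 0.919, PIF8 at 37.3 ± 0.84, PIF7 at 26.1 ± 1.16 and PIF1 at 13.9 ± 0.392, and the libraries of these 5 genes did not overlap from one rank to the next. PIF3 at 1.63 ± 0.194, PIF6 at 1.43 ± 0.135 and SPT at 1.33 ± 0.412 CPM per kb followed, and these 3 overlapped with their neighbours in the order. After 25 h of LRFR PIF8 held the first rank in Col-0 at 57.4 ± 2.76 CPM per kb, with libraries that overlapped those of PIF5 at 51.5 ± 7.32. In pif457 PIF8 stood first in every light condition, at 42.9 CPM per kb in HRFR, 43.5 at 1 h and 42.1 at 25 h. PIF5 and PIF4, which stood above PIF8 in Col-0 HRFR, are both mutated in pif457. The first rank there does not by itself show more PIF8 transcript. The PIF8 means of Col-0 were lower in HRFR (37.3 CPM per kb) and at 1 h (34.9), and higher at 25 h (57.4).

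**Figure D1:**
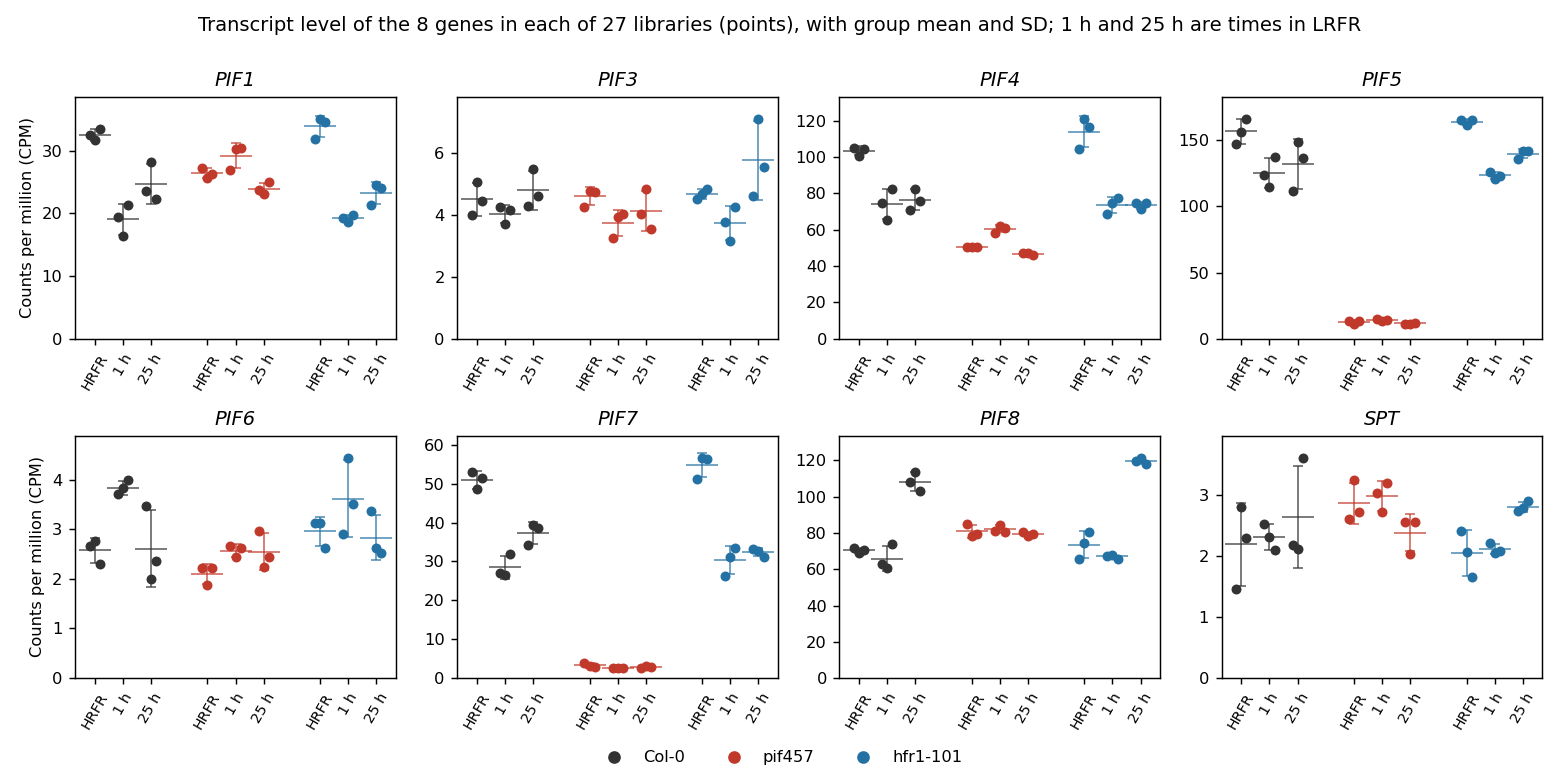
CPM of each gene (y axes from 0, a scale per gene) in the 27 libraries (points) of the 3 genotypes in HRFR and after 1 h and 25 h of LRFR (x axis), with group means and SD bars. PIF1 drops at 1 h from a mean of 32.6 to 19.0 CPM in Col-0 but stands at 26.4 and 29.2 CPM in pif457, and PIF8 reaches 108.3 CPM at 25 h in Col-0 against 79.5 in pif457.

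The mutated genes were read first, as a check of the genotype. PIF7 gave 53.1, 48.6 and 51.4 CPM in the 3 Col-0 HRFR libraries and 3.85, 3.08 and 2.80 CPM in pif457. PIF5 gave 147, 156 and 166 CPM in Col-0 and 13.4, 11.4 and 13.6 CPM in pif457. Both were low in every pif457 library, with no overlap between the genotypes in any light. PIF4 was different, at 105, 101 and 105 CPM in Col-0 and 50.7, 50.7 and 50.8 CPM in pif457, so that about 49.0% of its counts remained, against 8.18% for PIF5 and 6.36% for PIF7.

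In the edgeR comparison of pif457 with Col-0 in HRFR, PIF4, PIF5 and PIF7 were the 3 members called, where 2.7% of all genes were. Their log2FC were -1.03 ± 0.07 (SE, adjusted p = 8.97e-10), -3.61 ± 0.09 (adjusted p = 2.77e-18) and -3.97 ± 0.11 (adjusted p = 9.03e-18). The PIF4 share kept in pif457 moved with light, from 49.0% in HRFR to 81.5% after 1 h and 61.0% after 25 h of LRFR. Reads counted from these loci are not a measure of working protein. PIF5 kept 11.3% and 8.77% at 1 h and 25 h, and PIF7 9.32% and 7.65%.

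**Figure D2:**
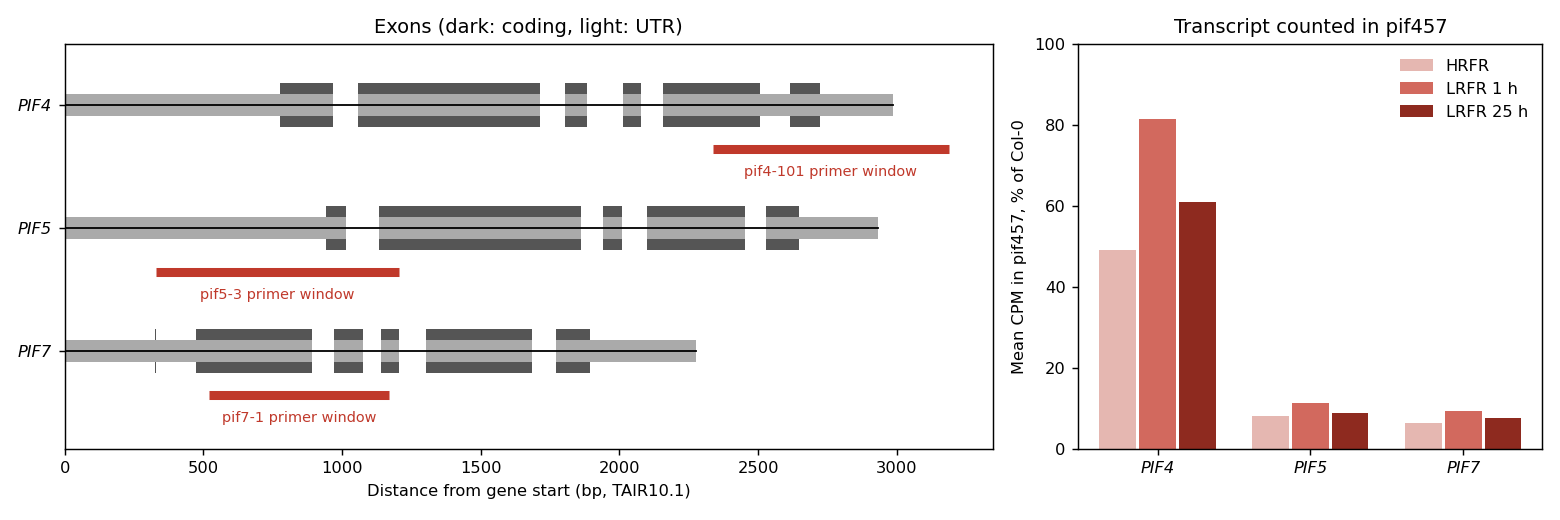
Left, exons of PIF4, PIF5 and PIF7 (union of annotated transcripts, dark for coding and light for untranslated parts) by distance from the gene start in bp, with the genotyping windows of the 3 alleles in red. Right, mean CPM in pif457 as a percentage of Col-0 in the same light (n = 3 libraries per group). PIF4 kept 49.0% to 81.5% of the Col-0 counts, and PIF5 and PIF7 at most 11.3%.

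After 1 h of LRFR 2 of the 5 abundant members, PIF1 and PIF7, fell in Col-0. PIF1 gave 32.5, 31.6 and 33.5 CPM in HRFR and 19.5, 16.3 and 21.3 CPM at 1 h, and PIF7 gave 53.1, 48.6 and 51.4 CPM in HRFR and 27.1, 26.5 and 31.9 CPM at 1 h. Every shaded library lay below every unshaded one for both genes. PIF1 fell by 0.78 ± 0.09 (SE) on the log2 scale (edgeR, adjusted p = 8.2e-07) and PIF7 fell by 0.84 ± 0.09 (adjusted p = 3.66e-07). These were 2 of 8 members called, both lower, where 2.11% of all genes were called and 0.685% were called lower.

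PIF4 and PIF5 passed the adjusted p but not the fold threshold. PIF4 went from 105, 101 and 105 CPM to 74.5, 65.6 and 82.5 CPM (log2FC -0.48 ± 0.07, adjusted p = 3.12e-05) and PIF5 from 147, 156 and 166 CPM to 123, 115 and 137 CPM (log2FC -0.32 ± 0.08, adjusted p = 0.0168). Neither gene's shaded libraries reached its unshaded ones. On the adjusted p alone, 4 of 8 members were lower and none higher, where 4.4% of all genes passed and 2.11% were lower. PIF8 (log2FC -0.10 ± 0.07), PIF3 (-0.15 ± 0.15) and SPT (0.10 ± 0.21) did not pass, and PIF6, at 2.65, 2.77 and 2.30 CPM in HRFR and 3.71, 3.83 and 3.99 CPM at 1 h, did not pass either (log2FC 0.58 ± 0.18, adjusted p = 0.0681).

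After 25 h the member that stood out in Col-0 was PIF8, a PIF whose role in seedlings is less well described than that of PIF4, PIF5 and PIF7. Its level was 72.0, 68.8 and 70.4 CPM in HRFR, 63.1, 60.7 and 73.9 CPM at 1 h and 108, 114 and 103 CPM at 25 h. The 25 h libraries lay above all others of this genotype. PIF8 rose against HRFR (log2FC 0.62 ± 0.07, adjusted p = 3.88e-07) and against 1 h (log2FC 0.72 ± 0.07, adjusted p = 4.51e-08), the only member called in either comparison, where 4.04% and 5.02% of all genes were called. The rise against HRFR lay just above the fold threshold and was 0.59 without the second 25 h library.

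PIF1, PIF4, PIF5 and PIF7 passed the adjusted p at 25 h against HRFR with smaller changes, of -0.40 ± 0.09, -0.44 ± 0.07, -0.25 ± 0.08 and -0.45 ± 0.09 in log2FC. PIF3 (0.09 ± 0.15), PIF6 (0.03 ± 0.18) and SPT (0.28 ± 0.21) did not pass, so that on the adjusted p alone 4 of 8 members were lower and PIF8 higher, where 11.6% of all genes passed and 5.18% were lower. Against 1 h, PIF1 (0.38 ± 0.09) and PIF7 (0.39 ± 0.09) stood higher at 25 h on the adjusted p, at 23.5, 28.3 and 22.3 CPM for PIF1 and 34.1, 39.5 and 38.6 CPM for PIF7. Both genes therefore lay between their 1 h and their HRFR levels at 25 h. PIF6 stood lower at 25 h than at 1 h (3.48, 1.99 and 2.36 CPM, log2FC -0.55 ± 0.18, adjusted p = 0.0415), and passed the fold threshold at -0.80 without the Col-0 LRFR 25 h library that stood apart.

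In pif457 none of the 8 genes passed the thresholds for light. With edgeR 0 of 8 members were called at 1 h, at 25 h or between the times, with 2, 0 and 3 members at an unadjusted p under 0.05, and DESeq2 called 0 as well. The background shares called there were 0.148%, 0.919% and 1.33% of genes, lower than in Col-0. At an unadjusted p under 0.05 the shares over all genes were 5.93%, 12.5% and 17.1%. PIF1 gave 27.3, 25.6 and 26.4 CPM in HRFR, 26.9, 30.3 and 30.5 CPM at 1 h and 23.8, 23.1 and 25.0 CPM at 25 h, with overlap between HRFR and 1 h. PIF8 gave 84.8, 78.6 and 79.2 CPM in HRFR, 81.1, 84.6 and 80.3 CPM at 1 h and 80.6, 78.3 and 79.5 CPM at 25 h, and all 3 groups overlapped. For the light change of PIF8 at 25 h the 95% interval was -0.16 to 0.11 in log2FC. The reads left at PIF4 were 58.4, 62.0 and 61.1 CPM at 1 h and 47.1, 47.0 and 46.1 CPM at 25 h, a difference of -0.37 ± 0.07 that passed the adjusted p (0.00211) but not the fold threshold.

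**Figure D3:**
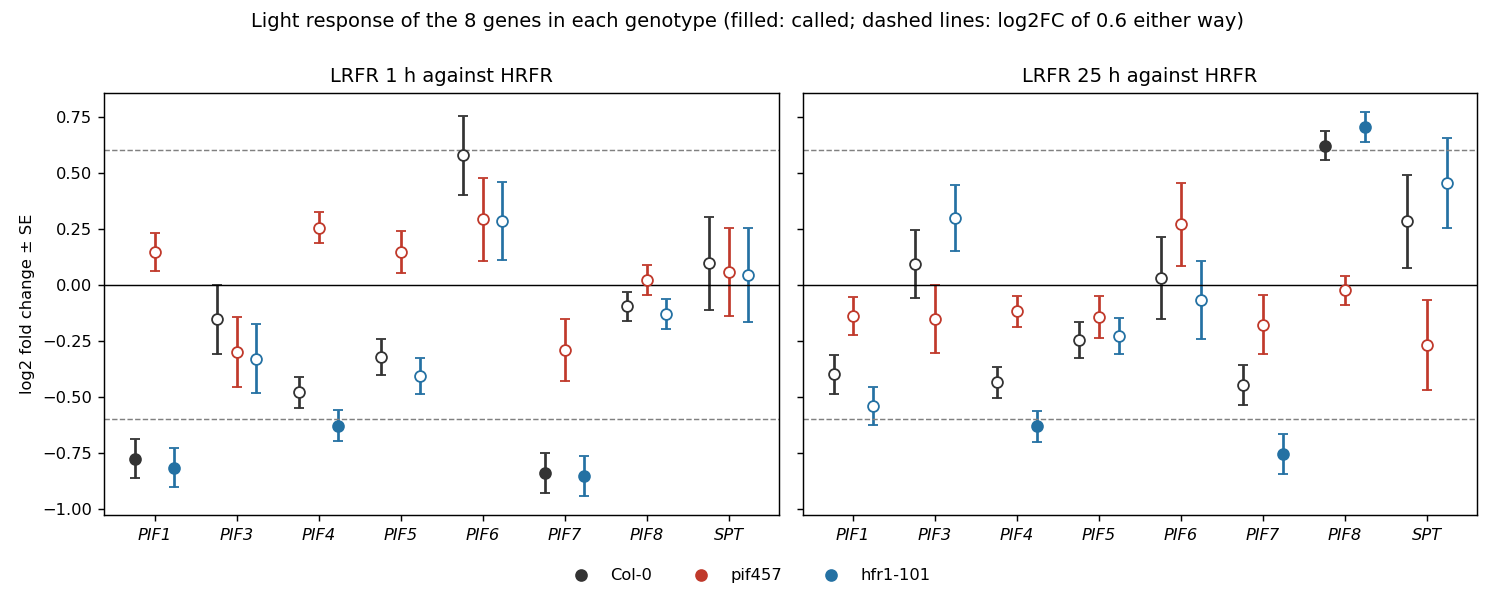
log2 fold change with its SE (y axis) for each gene (x axis) in Col-0, pif457 and hfr1-101 after 1 h (left) and 25 h (right) of LRFR against HRFR, from 1 edgeR fit over 27 libraries; filled points were called. PIF1 lies at -0.78 in Col-0 and 0.15 in pif457 at 1 h, and PIF8 at 0.62 in Col-0 and -0.03 in pif457 at 25 h.

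The difference in light response between the genotypes was tested directly as an interaction. At 1 h it was called for 3 of 8 members, all with a higher value in pif457, where 2.04% of all genes were called and 0.876% in that direction. For PIF1 the responses differed by 0.92 ± 0.12 in log2FC (95% interval 0.67 to 1.18, adjusted p = 3.86e-05), from -0.78 in Col-0 to 0.15 in pif457. PIF4 differed by 0.74 ± 0.10 (interval 0.53 to 0.94, adjusted p = 4.09e-05), from -0.48 to 0.25, read from a mutated locus. PIF5, also mutated, differed by 0.47 ± 0.12 with an adjusted p of 0.0456, a call lost in 28 of 37 alternative settings. PIF7 differed by 0.55 ± 0.17 and did not pass (adjusted p = 0.107).

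At 25 h the interaction was called for PIF8 alone among the members, with a lower value in pif457, where 0.46% of all genes were called and 0.345% in that direction. The responses differed by -0.65 ± 0.09 in log2FC (interval -0.84 to -0.45, adjusted p = 0.000746). The interactions of PIF1 and PIF4 at 1 h and of PIF8 at 25 h were called under each of the 37 alternatives, including the fit without both Col-0 libraries that stood apart. The PIF1 difference ranged from 0.82 to 0.99 over them, and that of PIF8 from -0.70 to -0.61.

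Some markers moved with these changes. The list of 6 guard cell markers includes the stomatal lineage gene SPCH. Of these 6, 1 was called at 1 h in Col-0, where 2.11% of all genes were. It was the potassium channel gene KAT1 (log2FC 2.33), while the other 5 lay between -0.34 (MYB60) and 0.00 (TMM) and did not pass. The summed level of the 6, KAT1 included, was 65.3 to 80.2 CPM in HRFR and 159.8 to 205.7 CPM at 1 h, against 64.5 to 67.1 and 66.1 to 74.7 CPM in pif457. Of 6 green shoot markers, 3 were called lower at 25 h in Col-0, where 4.04% of all genes were called and 1.66% called lower. They were CAB3, CAB1 and LHCA2, of the light-harvesting antenna. The sum of the 6 went from 67543 to 78727 CPM in HRFR to 42697 to 61223 CPM at 25 h. In pif457 the same sum went from 61420 to 65128 CPM to 53722 to 54983 CPM. The 10 root markers summed to 131.9 to 192.6 CPM in Col-0 HRFR, 134.1 to 150.0 CPM at 1 h and 141.9 to 201.0 CPM at 25 h. At 25 h against 1 h in Col-0, 2 root, 1 guard cell and 3 green shoot markers were called, all lower. Of all genes, 5.02% were called there and 2.36% called lower. In pif457 against Col-0 at 25 h, where PIF8 was lower, the root markers PLT2 (log2FC 1.24) and RHD6 (0.92) were called higher. So were the stomatal lineage gene SPCH (1.01) and CAB3 (0.48), while KAT1 (-1.66) was called lower. The other 8 root, 4 guard cell and 5 green shoot markers were not called. The median log2FC of these 3 lists was 0.09, 0.09 and 0.14. Of all genes, 6.87% were called and 2.83% called higher. Root sums were 142.4 to 147.2 CPM in pif457 and 141.9 to 201.0 CPM in Col-0. No marker of any list was at 0 throughout a group. The part of these markers in the PIF1 and PIF8 results was not tested.

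Compensation by the remaining family members was read from pif457 against Col-0 in each light. In HRFR none of the 5 unmutated genes was called. PIF8 stood at 84.8, 78.6 and 79.2 CPM against 72.0, 68.8 and 70.4 CPM, without overlap (log2FC 0.20 ± 0.07, adjusted p = 0.0966), and PIF1 stood lower at 27.3, 25.6 and 26.4 against 32.5, 31.6 and 33.5 CPM (log2FC -0.30 ± 0.08, adjusted p = 0.055). These 2 differences lay near the threshold, since PIF8 passed with total counts in place of TMM (log2FC 0.29, adjusted p = 0.00523) and PIF1 passed with DESeq2 (log2FC -0.30, adjusted p = 0.0253). SPT (0.40 ± 0.20), PIF3 (0.03 ± 0.15) and PIF6 (-0.29 ± 0.19) did not pass, and their intervals of -0.03 to 0.83, -0.28 to 0.35 and -0.68 to 0.10 leave room for moderate changes.

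After 1 h of LRFR 2 unmutated members were higher in pif457, where 4.21% of all genes were called and 1.8% called higher. PIF1 gave 26.9, 30.3 and 30.5 CPM against 19.5, 16.3 and 21.3 CPM in Col-0, a log2FC of 0.62 ± 0.09 (adjusted p = 2.78e-05). PIF8 gave 81.1, 84.6 and 80.3 against 63.1, 60.7 and 73.9 CPM, a log2FC of 0.32 ± 0.07 (adjusted p = 0.00353). PIF6 lay the other way, at 2.66, 2.43 and 2.62 CPM against 3.71, 3.83 and 3.99 CPM, without overlap, and did not pass (log2FC -0.58 ± 0.18, adjusted p = 0.0747), though it did in 3 of the alternatives. PIF3 (-0.11 ± 0.16) and SPT (0.36 ± 0.20) did not pass. The pif457 level of PIF1 at 1 h still lay below the Col-0 level in HRFR in each library. The 3 mutated genes were called lower, PIF4 by the smallest amount (log2FC -0.29 ± 0.07, adjusted p = 0.0104), a call lost when only the groups compared entered the fit (adjusted p = 0.0684), without the third Col-0 library (0.0664) and without the first pif457 library (0.0618).

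After 25 h the direction for PIF8 was the opposite. Its level in pif457, 80.6, 78.3 and 79.5 CPM, was below the 108, 114 and 103 CPM of Col-0 (log2FC -0.45 ± 0.07, adjusted p = 0.000115), and 4 of 8 members were called, all lower, where 6.87% of genes were called and 4.04% called lower. The other 3 were the mutated genes, at -0.71 ± 0.07 for PIF4, -3.51 ± 0.09 for PIF5 and -3.70 ± 0.11 for PIF7. PIF1 (-0.04 ± 0.09), PIF3 (-0.21 ± 0.15), PIF6 (-0.05 ± 0.18) and SPT (-0.15 ± 0.20) did not pass at 25 h.

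Summed per kb of exon, the 8 genes gave 182.7 ± 4.11 CPM per kb in Col-0 HRFR, 140.1 ± 13.8 at 1 h and 172.9 ± 13.0 at 25 h (SD, n = 3). In pif457 the sums were 84.9 ± 2.47, 90.7 ± 2.01 and 80.7 ± 0.848, that is 46.5%, 64.8% and 46.7% of Col-0. The 5 unmutated genes alone summed to 55.6, 48.0 and 72.7 CPM per kb in Col-0 and to 58.7, 60.5 and 56.7 in pif457, or 105.6%, 126.0% and 77.9% of Col-0. PIF8 made up 20.4% of the sum of 8 in Col-0 HRFR and 33.2% at 25 h, and 47.9% to 52.2% in pif457. The pif457 sums lack most reads of PIF5 and PIF7 and draw 22.3% to 25.7% from the mutated PIF4 locus. A larger share there does not by itself show more PIF8 transcript. It was highest at 25 h, where PIF8 was called lower than in Col-0. The sums describe transcript counts over genes of unlike function and were not tested.

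**Figure D4:**
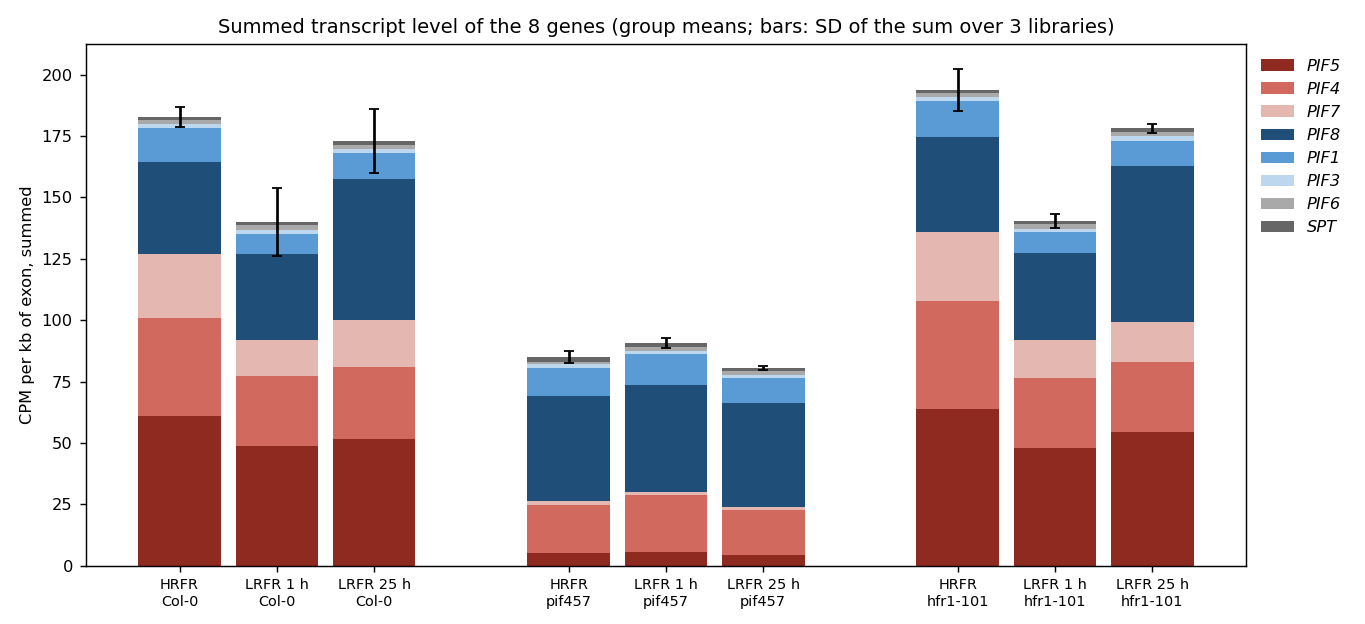
Mean CPM per kb of exon of the 8 genes, stacked (y axis from 0), in the 9 groups (x axis), with the SD of the sum over 3 libraries as bars. The sum is 182.7 in Col-0 HRFR and 84.9 in pif457 HRFR, and PIF8 (dark blue) grows at 25 h in Col-0 and hfr1-101 but not in pif457.

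In hfr1-101 no member was called different from Col-0 in any light. HFR1 lacks a typical DNA-binding region and pairs with PIF proteins, holding them off DNA. HFR1 itself was not called lower in hfr1-101 (19.8, 124.3 and 211.2 CPM in the 3 conditions, against 15.6, 106.6 and 142.3 in Col-0), so that its transcript level is no check of the label. Among the 8 genes, edgeR called 0 in HRFR, at 1 h and at 25 h, and DESeq2 called 0 as well. Of all genes, edgeR called 0.0814%, 0.177% and 0.254%. An unadjusted p under 0.05 was reached by 0, 0 and 2 members, and by 5.49%, 9.62% and 6.57% of all genes. The largest log2FC of PIF1, PIF4, PIF5, PIF7 and PIF8 in any light was -0.21 ± 0.09 for PIF7 at 25 h, with an interval of -0.39 to -0.02, and PIF8 at 25 h had 0.14 ± 0.07 with an interval of 0.01 to 0.28.

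The light responses in hfr1-101 were read on their own. At 1 h, PIF1 (log2FC -0.82 ± 0.09), PIF4 (-0.63 ± 0.07) and PIF7 (-0.85 ± 0.09) were called lower, where 2.5% of all genes were called and 0.876% called lower. At 25 h, PIF4 (-0.63 ± 0.07) and PIF7 (-0.76 ± 0.09) were lower and PIF8 (0.70 ± 0.07) higher, where 6.61% of genes were called. PIF5 at 1 h (-0.41 ± 0.08) and PIF1 (-0.54 ± 0.08) and PIF5 (-0.23 ± 0.08) at 25 h passed the adjusted p but not the fold threshold. PIF4 lay just past the fold threshold at both times and fell short of it with total counts (-0.58 and -0.57) and without the second hfr1-101 HRFR library (-0.57 and -0.58). PIF8 gave 65.5, 74.4 and 80.3 CPM in HRFR and 119, 121 and 118 CPM at 25 h. Between the times PIF8 (0.83 ± 0.07) and PIF3 (0.63 ± 0.15) were higher at 25 h, where 7.06% were called, and PIF3 fell short at 0.45 (adjusted p = 0.0505) without the 25 h library at 7.12 CPM and at 0.52 without the second 1 h library. The test of the difference between hfr1-101 and Col-0 in response called 0 genes at either time with edgeR, with 513 and 1181 genes at an unadjusted p under 0.05 and 4 and 5 genes by DESeq2, none of them among the 8. For PIF4 that difference was -0.15 at 1 h, with an interval of -0.35 to 0.05. For PIF7 it was -0.31 at 25 h, with an interval of -0.57 to -0.05. PIF7 was the 1 member at an unadjusted p under 0.05 there, where 5.65% of all genes were.

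Over the 6 groups of Col-0 and hfr1-101, in which all 8 genes are intact, the highest group mean was 1.33 times the lowest for PIF5, 1.38 for SPT, 1.54 for PIF3, 1.55 for PIF4, 1.49 for PIF6, 1.78 for PIF1, 1.82 for PIF8 and 1.92 for PIF7. SPT and PIF6 were called in none of the 19 comparisons and PIF3 in 1.

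Of 7 other genes of the same bHLH group, HFR1, PIL1, ALC and bHLH23 had enough reads for a test, and HFR1 and PIL1 were called higher in LRFR. PIL1, a negative regulator in shade, rose from 0.41 to 37.2 CPM at 1 h in Col-0 (log2FC 6.46 ± 0.25) and from 0.26 to 1.14 CPM in pif457 (log2FC 2.11 ± 0.42). HFR1 rose from 15.6 to 106.6 CPM (log2FC 2.77 ± 0.16) and from 2.57 to 7.85 CPM in pif457 (log2FC 1.60 ± 0.21). ALC, which acts in fruit opening, and bHLH23 were called in no comparison.

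Genes that act on PIF proteins were read from a list of 30, of which 28 were tested. At 1 h in Col-0, 5 were called higher, where 2.11% of all genes were called and 1.42% called higher. Among them were PHYB, the photoreceptor that restrains PIF proteins (94.6 to 257.3 CPM, log2FC 1.44 ± 0.08), PAR1, an HLH protein that pairs with PIF4 (log2FC 2.78 ± 0.22), and the DELLA repressors GAI (1.00 ± 0.07) and RGL3 (1.11 ± 0.16). In pif457 PHYB went from 97.1 to 124.1 CPM at 1 h. The interaction was called for 6 of the 28, where 2.04% of all genes were. It was lower for 5, with PHYB at -1.09 ± 0.11 and PAR1 at -2.54 ± 0.36, and higher for the kinase gene BIN2 at 0.26 ± 0.06. The median log2FC over the list was 0.03 in Col-0 at 1 h, beside -0.01 over all genes tested. At 25 h in Col-0 the 2 called were PHYB (0.99 ± 0.08) and RGL2 (0.64 ± 0.12), both higher. Of all genes, 4.04% were called there and 2.38% called higher.

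Of 9 clock genes that act on PIF4 and PIF5, 2 were higher at 25 h in Col-0, where 4.04% of all genes were called and 2.38% called higher. They were the evening complex gene ELF4 (log2FC 0.92 ± 0.19) and the morning gene LHY (0.68 ± 0.07). ELF4 was also higher in pif457 at 25 h (1.33 ± 0.21), and the LHY response was smaller there by 0.51 on the log2 scale (adjusted p = 0.0116). Of 6 known PIF target genes, all 6 rose at 1 h in Col-0 and 3 in pif457, with a median log2FC of 3.82 and 1.12. Over all genes, 1.42% and 0.139% were called higher. The 6 were chosen as known targets, so their rise in Col-0 describes the list and is no separate evidence. The homeobox gene ATHB2, for example, rose by 4.46 ± 0.11 in Col-0 and by 2.11 ± 0.12 in pif457 on the log2 scale, and HFR1 and PIL1 stand in this list too.

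As a description, the genes whose group means over the 9 groups correlated most with PIF1 on the log2 scale were RLP26 (r = 0.989), GT2 (0.988) and PKS1 (0.975), the last of which encodes a phytochrome kinase substrate. For PIF8 they were AT5G57230 (0.98), RSR4 (0.979) and AT2G01260 (0.979). For PIF3 they were AT3G06570, RPP13 and AT5G52430, for PIF6 UBP7, AT5G16030 and AT1G74450, and for SPT EMB140, AT5G44010 and AT2G42950, at 0.929 to 0.978. Of 18613 genes compared, 54 had a correlation above 0.9 with PIF1 and 393 with PIF8. Over the 6 groups of Col-0 and hfr1-101 the genes closest to PIF7 were AT1G76360 (0.999), PMT5 (0.997) and AT5G54145 (0.997), those closest to PIF4 were AT2G38000, AT4G19530 and AT5G25280, and those closest to PIF5 were AT3G26445, AT5G49215 and MES12, at 0.991 to 0.997. The points are 9 or 6 group means that share libraries and depth, and no test was made.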

How the data were processed

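The authors removed adapters with Cutadapt, took out ribosomal reads, used STAR to place the reads of Illumina Stranded mRNA libraries on TAIR10 and ran htseq-count for the counts; their versions and the strand setting were not stated in the sources. The deposited values are raw counts per gene in 27 libraries of 24857067 to 34863803 reads in genes, and the lines that name no gene (6.15% to 7.09% of reads) were left out. The 8 members and all gene lists were chosen with earlier results of these data known.

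From the counts, edgeR 4.0.16 (R 4.3.3) was run with filterByExpr, TMM and 1 quasi-likelihood fit of 9 group means, which left 18 residual degrees of freedom for 19 comparisons. Standard errors are the log2FC divided by the square root of F, and intervals are 95% t intervals from them. The lists held 7 relatives, 30 regulators, 9 clock genes, 6 targets and 10 root, 6 guard cell and 6 green shoot markers. All 8 members were tested in every comparison; from each list at most the 4 genes with the largest change among those called are named, and the 3 genes of most similar pattern per member. Alternatives were other scalings, DESeq2 1.42.0, other filters, fits on fewer libraries, a replicate block and leaving out each library. Before use, the test was tried on simulated counts. Primer sequences came from the study's supplement; gene positions, exons and promoters from the RefSeq copy of TAIR10.1, in which 32547 of 34262 identifiers were found. Read depth limits precision, and p-values measure the spread between pools of seedlings. Over 36 pairs of groups, 3 had all same-numbered libraries deviating together (correlation above 0.1). Col-0 HRFR did so with Col-0 LRFR 25 h (0.576, 0.268 and 0.232) and with pif457 LRFR 1 h (0.206, 0.211 and 0.158). Col-0 and hfr1-101 at 25 h did so too (0.401, 0.148 and 0.25). The labels do not say what a number marks.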

Additional observations from a re-analysis of the deposited data

Results flagged for a closer look

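In 4 cases the light response of a member differed between pif457 and Col-0 by the interaction test itself (edgeR, adjusted over all genes). At 1 h the difference in log2FC was 0.92 for PIF1, 0.74 for PIF4 and 0.47 for PIF5, and at 25 h it was -0.65 for PIF8. PIF4 and PIF5 are mutated in pif457, so their values come from what the altered loci still transcribe, while PIF1 and PIF8 are intact there. The differences of PIF1 and PIF8 were not carried by 1 library, since they were called without each library in turn, whereas that of PIF5 had adjusted p-values of up to 0.188 over the alternatives.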

How the results depend on the processing

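For the 8 members in 19 comparisons, 5496 values under up to 37 alternatives were set against the reported ones. Of these, 5442 kept their direction and side of the threshold, 39 lost the call, 15 gained it and 0 reversed. Of 28 calls 22 held in every alternative, and the other 6 are named with the results except that PIF4 in hfr1-101 at 1 h also fell short (-0.58) without the first hfr1-101 LRFR 1 h library. Calls were gained for the pif457 interaction of PIF7 at 1 h without the first pif457 HRFR library (0.69, adjusted p = 0.0297) or the third Col-0 LRFR 1 h library (0.62, adjusted p = 0.0377), and for PIF6 in pif457 against Col-0 at 1 h when the fit held just these 2 groups (adjusted p = 0.0462) and without the first (adjusted p = 0.0295) or second (0.0484) Col-0 LRFR 25 h library. The other gained calls are named with the results. They are PIF1 and PIF8 in pif457 against Col-0 in HRFR and PIF6 in Col-0 between the times. Total counts shifted no comparison by more than 0.1 on the log2 scale.

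Counts of genes called moved more than those of members. With total counts the pif457 interaction at 25 h gave 213 genes (reported 96) and the hfr1-101 interaction at 1 h gave 2 (0). DESeq2 gave 943 for pif457 against Col-0 in HRFR (563), 56 and 86 for hfr1-101 against Col-0 at 1 h and 25 h (37 and 53), 196 for the pif457 interaction at 25 h, and 4 and 5 for those of hfr1-101. With only the groups compared in the fit, Col-0 gave 416 at 25 h (844) and 567 between the times (1049), pif457 gave 321 at 25 h (192), pif457 against Col-0 gave 228 in HRFR and 325 at 25 h (1435), hfr1-101 against Col-0 gave 20 and 13, and the pif457 interaction at 25 h gave 35. With the 18 libraries of Col-0 and pif457 the values were 20 for pif457 at 1 h (31), 354 for pif457 against Col-0 in HRFR and 48 for its interaction at 25 h. An alternative chosen after seeing the data, without both Col-0 libraries that stood apart, gave 334 and 154 for the last 2, 1 for the hfr1-101 interaction at 1 h, and 2 members called in Col-0 between the times (1). The causes were not tested.

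Leaving out 1 library at a time gave 0 to 1 members called in Col-0 at 25 h and 1 to 2 between the times, 1 to 2 in hfr1-101 between the times and 3 to 5 for pif457 against Col-0 in HRFR, the 5 without the third Col-0 LRFR 1 h library. Genes called ranged from 19 to 33 for pif457 at 1 h, 126 to 225 at 25 h and 165 to 330 between the times, from 156 (without the second pif457 HRFR library) to 976 (without the first Col-0 LRFR 25 h library) for pif457 against Col-0 in HRFR and 528 to 1863 at 25 h, and from 21 to 55 and 35 to 68 for hfr1-101 against Col-0 at 1 h and 25 h. For the interactions they ranged from 45 to 187 for pif457 at 25 h, and 0 to 3 and 0 to 2 for hfr1-101.

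Same-numbered libraries of different groups had a correlation of deviations above 0.1 in 24 of 108 pairs (median 0.0043). All 3 pairs did for Col-0 HRFR with Col-0 LRFR 25 h and with pif457 LRFR 1 h, and for Col-0 with hfr1-101 at 25 h. With the replicate block no call of a member changed, PIF8 in Col-0 at 25 h stood at 0.62 (adjusted p = 9.89e-07) with 856 genes called in place of 844, and the hfr1-101 interaction at 25 h gave 1 gene in place of 0.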
